A study of Rattus norvegicus with 14 samples.

Results

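The mitochondrial import and assembly genes described here are the genes whose symbols belong to the Timm, Tomm, Chchd and Coa series, together with Slirp. They were taken by symbol from the tables of estimated counts and TPM, and 40 of 30562 genes met the rule. The rule reads symbols only, but it was chosen with earlier results of these data known. Shares of members set beside shares of all genes below therefore do not come from a blind choice. Grouped by symbol, they comprised 9 Tomm genes, named for the outer membrane translocase though not all are part of it, 7 small Tim chaperones and 8 inner membrane Tim genes. The others were 10 Chchd genes, 5 cytochrome oxidase assembly factors (Coa) and Slirp. RNA was sequenced from lumbar dorsal root ganglia, the ganglia that hold the cell bodies of sensory neurons, of 7 male wild-type rats. In each rat the saphenous nerve, which carries sensation from the leg, had been given a graft of extensor digitorum longus muscle in 1 hindlimb, and the ganglia of the hindlimb that was not operated on gave the control library of the same animal. The groups were 4 surgical and 4 control libraries at 8 weeks (rats D, C, G and H) and 3 surgical and 3 control libraries at 6 weeks (rats A, B and E). All rats carried a graft, so the control ganglia came from operated animals, and different rats were sampled at the 2 times. A library held ganglia L2 to L5 together, and total estimated counts ran between 18489118 and 28237574 per library. The comparisons ask how these genes differed between the sides, and whether that depended on the time after the operation.

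Most mitochondrial proteins are encoded in the nucleus and enter the organelle through the TOM complex of the outer membrane. Presequence proteins continue through the TIM23 complex, carrier proteins are handed by small Tim chaperones to the TIM22 complex, and cysteine-rich proteins are folded in the intermembrane space by Chchd4 (MIA40). Coa proteins help to build cytochrome c oxidase, Chchd3 and Chchd6 are subunits of the cristae complex MICOS, and SLIRP, with its partner LRPPRC, binds and stabilises mitochondrial mRNAs. Sensory neurons of the ganglia support long axons, and their mitochondria serve both the cell body and the axon.

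All 16 neuronal markers were detected in every group, but so were all 13 skeletal muscle and all 9 macrophage markers, so detection alone did not identify the tissue. Several libraries stood apart. The mean neuronal marker level was lowest in the surgical library of rat A, at 6.52 log2 CPM, and next lowest in the control library of rat B, at 7.23. Summed over the list, skeletal muscle markers came to 50930 CPM in rat C's surgical library, 6871 CPM in rat H's control and 1639 CPM in rat E's surgical library. Spinal cord markers summed to 1541 CPM for rat B on the surgical side. Schwann cell markers summed to between 5202 and 10400 CPM in the 8-week controls and between 14180 and 22020 CPM in the 6-week controls, which did not overlap. Mitochondrial mRNAs summed to 118500 to 308400 TPM.

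Of the 40 genes, 38 passed the filter on low counts, while Timm8a2 had at most 6 and Tomm20l at most 4 counts in any library and were not tested. Expressed per transcript length, in TPM, the highest member was Tomm7, a small TOM subunit, at 585 ± 126 TPM (SD, n = 14 libraries). Chchd2l1 (497 ± 101 TPM) and Timm8b (429 ± 128 TPM), a small Tim chaperone of the intermembrane space, came next, and their spreads overlapped that of Tomm7. Timm23, the channel subunit of the presequence translocase, followed at 160 ± 62.9 TPM, Chchd1, a protein of the small mitochondrial ribosomal subunit, at 141 ± 46.8 TPM and Chchd10 at 126 ± 53.2 TPM, and the spreads of these 3 overlapped. Slirp averaged 90.7 ± 26.8 TPM. The import receptors were lower, with Tomm70 at 51.9 ± 21.0, Tomm20 at 48.6 ± 10.4 and Tomm22 at 30.5 ± 6.01 TPM. The lowest of the tested members was Chchd2l2, at 0.69 ± 0.269 TPM, and the lowest of all was Timm8a2, at 0.107 ± 0.113 TPM. Chchd2l1, Chchd2l2 and Chchd2l3 have related symbols, as have Timm23 and Timm23b (a pseudogene in RefSeq), and Timm17a and Timm17b. The same holds for Timm8a1 and Timm8a2, Tomm20 and Tomm20l, and Tomm40 and Tomm40l. Their sequences were not compared here. Reads may have been split between genes of such a set, to a degree that was not tested, so their values are uncertain.

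Dividing a gene's count by its TPM gives a relative transcript length. It was scaled in each library by the median over genes with at least 20 counts in every library. The middle tested gene then lay at 0.962. The value reflects the length used in computing TPM, which may differ from the full length of the transcript. Short transcripts were common among the members. The lowest quartile of tested genes ended at a relative length of 0.586, and 26 of the 38 members lay in it, which are called small below, while the other 12 are called long. Timm10b (0.0487), Tomm7 (0.0587) and Timm8b (0.0998) were the shortest, and Slirp (0.125) and Chchd1 (0.128) lay at the 2.50th and 2.58th percentile of all tested genes. Tomm70 (1.51) and Coa4 (1.69) were the longest.

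Slirp, Timm8b and Chchd1 were the 3 members that passed the test in 1 comparison (control ganglia, 8 against 6 weeks), and for that reason their promoter windows, from 250 bases before to 50 after the annotated start, are given here from RefSeq (GRCr8). The windows lie at chr6:112819434-112819733 on the plus strand for Slirp, chr8:59850487-59850786 on the plus strand for Timm8b and chr15:3643106-3643405 on the minus strand for Chchd1. Capitals mark matches on either strand to an ETS motif (CCGGAAG) or a YY1 motif (AAGATGGCG), factors known in mammals to bind near the start of many nuclear genes for mitochondrial proteins.
Slirp: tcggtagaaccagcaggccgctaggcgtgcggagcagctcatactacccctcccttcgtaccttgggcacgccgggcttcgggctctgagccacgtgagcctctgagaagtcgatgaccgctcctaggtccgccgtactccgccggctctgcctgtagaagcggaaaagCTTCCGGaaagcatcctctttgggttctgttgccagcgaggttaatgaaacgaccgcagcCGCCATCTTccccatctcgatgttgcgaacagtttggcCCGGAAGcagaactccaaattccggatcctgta
Timm8b: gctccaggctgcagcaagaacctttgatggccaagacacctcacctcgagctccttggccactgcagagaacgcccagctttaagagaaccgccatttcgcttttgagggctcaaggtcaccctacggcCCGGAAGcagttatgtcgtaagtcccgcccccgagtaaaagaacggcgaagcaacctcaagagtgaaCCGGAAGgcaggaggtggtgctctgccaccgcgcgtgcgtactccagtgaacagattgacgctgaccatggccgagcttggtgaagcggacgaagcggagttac
Chchd1: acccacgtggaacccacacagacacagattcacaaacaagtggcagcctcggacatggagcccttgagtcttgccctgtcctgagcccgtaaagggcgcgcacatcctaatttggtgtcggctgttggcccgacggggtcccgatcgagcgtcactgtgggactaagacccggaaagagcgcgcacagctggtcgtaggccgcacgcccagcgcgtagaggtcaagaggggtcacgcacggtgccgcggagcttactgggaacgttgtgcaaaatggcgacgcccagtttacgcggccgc
Slirp held 2 ETS matches and 1 YY1 match, Timm8b held 2 ETS matches, and Chchd1 held no match to these or to the other motifs searched, NRF1 (GCGCATGCG) and CCAAT. Across the 35 members with a RefSeq window, 13 held the ETS motif, against 8.75% of 33469 windows of the same length and 10.7% of the 21851 windows of protein-coding genes. The YY1 motif was in 3 of the 35, against 1.73% of windows (2.07% of protein-coding ones), and the NRF1 motif in 2, Chchd4 and Tomm7, against 1.52% (1.93%). CCAAT was in 15 of the 35, against 37.5% of windows. None of the 4 motifs contains another, and a match describes the sequence only.

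Slirp had 19.5, 19.9, 21.9 and 18.8 CPM in the 8-week surgical libraries of rats D, C, G and H, against 19.8, 22.8, 20.4 and 19.4 CPM in their controls. At 6 weeks it had 21.8, 19.6 and 21.3 CPM in the surgical libraries of rats A, B and E, against 41.1, 47.1 and 43.6 CPM in their controls (TMM-scaled CPM, the estimated count relative to the effective library size). The 3 controls at 6 weeks thus stood above the other 11 libraries, which lay close together. The underlying estimated counts were 401 to 418 in the 6-week surgical libraries, against 740 to 921 in the 6-week controls. Timm8b showed the same layout, with 67.3 to 81.6 CPM in the 8-week surgical libraries, against 73.3 to 83.8 CPM in the 8-week controls. At 6 weeks Timm8b had 85.9, 80.0 and 83.2 CPM in the surgical libraries of rats A, B and E, against 153.5, 189.7 and 174.6 CPM in their controls. The highest library of Timm8b outside the 6-week controls, the surgical one of rat A, was well below the lowest of those controls. Chchd1 had 22.2 to 33.6 CPM in the 8-week surgical libraries, against 26.6 to 32.6 CPM in the 8-week controls. At 6 weeks Chchd1 had 50.7, 31.6 and 37.1 CPM in the surgical libraries of rats A, B and E, against 80.9, 101.4 and 66.4 CPM in their controls. Here the surgical library of rat A lay between the other surgical libraries and the controls, and the groups did not overlap. Tomm7 had 57.7 to 68.4 CPM in the 8-week surgical libraries, against 60.1 to 74.5 CPM in the 8-week controls, and 77.1, 57.8 and 61.9 CPM in the 6-week surgical libraries of rats A, B and E, against 112.2, 144.5 and 118.5 CPM in their controls. In TPM the 6-week controls also stood above the other libraries for Slirp, Timm8b and Chchd1, but not for Tomm7. Tomm7 had 635.9, 712.1 and 903.9 TPM in the 6-week controls of rats A, B and E. The 8-week control of rat G had 700.7 TPM, so these groups overlapped.

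**Figure D1:**
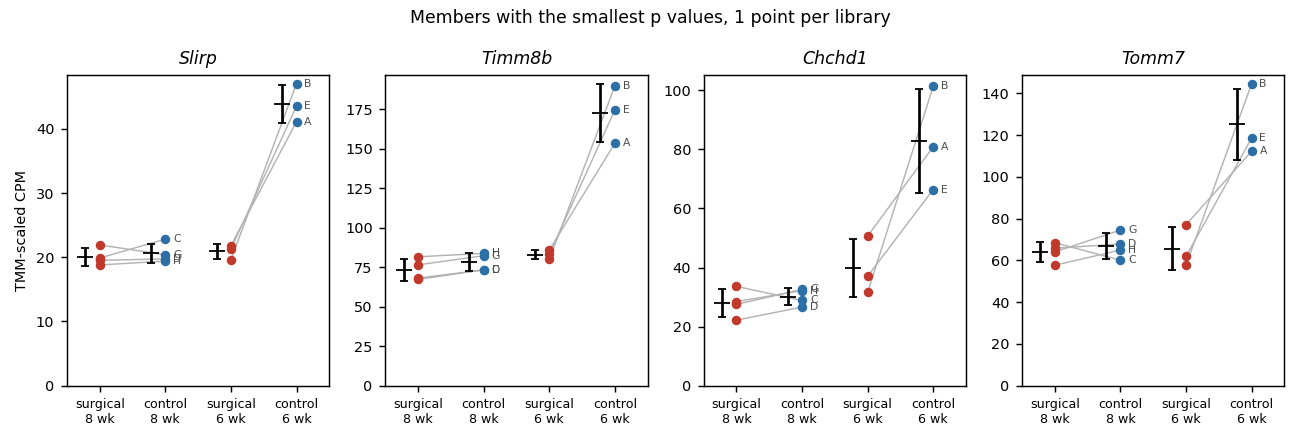
TMM-scaled CPM (vertical axes from 0) of Slirp, Timm8b, Chchd1 and Tomm7 in the 14 libraries, with surgical libraries in red and control libraries in blue, grey lines joining the 2 sides of a rat, letters naming the rat, and bars giving the mean and SD of each group (n = 4 at 8 weeks, n = 3 at 6 weeks). On this scale the 3 control libraries at 6 weeks lie above the other libraries in each panel, for Slirp at 41.1 to 47.1 CPM.

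In surgical against control ganglia over both times, 0 members passed the test (edgeR quasi-likelihood with the rat as a block, adjusted p under 0.05 over 17035 genes), and the share of all genes called was 0%. DESeq2 called 0 members and 0.0352% of genes, and limma on log2 TPM with 1 added called 0 members and 0% of genes. At an unadjusted p under 0.05, 5 of 38 members were counted, 13.2%, all lower on the surgical side, against 2.42% of all genes. They were Timm8b, at -0.50 (SE 0.19), Timm10, which forms a chaperone hexamer with Timm9, at -0.38 (SE 0.14), Chchd1 at -0.52 (SE 0.21), Slirp at -0.48 (SE 0.20) and Tomm7 at -0.43 (SE 0.19), each on the log2 scale and each at an adjusted p of 1.0. The count of 5 was 0 without rat E (1.37% of genes), 1 without rat A (1.84%), 1 without rat B (2.44%) and 3 without rat H (2.59%). Timm8b was lower on the surgical side in 7 of 7 rats, and the others in 6 of 7. The median log2 difference of the members was -0.15, with 32 of 38 below 0, beside 0.00038 over all genes, of which 49.9% were below 0. In the lowest quartile of length 23 of 26 members and 66.3% of all genes were below 0. Of the members above 0, Timm23b had 0.48, Chchd2l2 0.19 and Timm23 0.047. In bulk ganglia, fewer cells of a type and less RNA per cell cannot be told apart, and this holds for every difference below.

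At 8 weeks the 2 sides differed little in these genes. No member reached an unadjusted p under 0.05, against 1.06% of all genes, and edgeR and limma each called 0 members and 0% of genes, while DESeq2 called 0 members and 0.0235%. The log2 difference, surgical minus control, was -0.039 for Slirp (SE 0.13), -0.093 for Timm8b (SE 0.13), -0.12 for Chchd1 (SE 0.19) and -0.062 for Tomm7 (SE 0.16). The median of the members was -0.040, with 25 of 38 below 0, beside 0.0057 for all genes. The largest difference was that of Timm23b, at 0.96 (SE 0.59, adjusted p = 1.0), with 2.65 to 4.57 CPM in the surgical libraries, against 1.31 to 2.63 CPM in the controls. It was the 1 member with no overlap between the sides, and surgical libraries lay above controls in 0.511% and below in 1.39% of all genes. Timm17b (0.25, SE 0.30) and Timm23 (0.13, SE 0.16) followed among those higher. Both were highest in the surgical library of rat C, the one with the most muscle RNA, where Timm17b had 31.9 CPM, against 12.7 to 13.4 CPM in the other surgical libraries, and the part of muscle RNA in these values was not tested. Of those lower, Timm10 had -0.17 (SE 0.16) and Timm22, the channel of the carrier translocase, -0.14 (SE 0.15).

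At 6 weeks the members lay mostly below 0, though 0 passed the threshold by edgeR, which called 0% of genes, and 0 by limma, which also called 0%. The median log2 difference was -0.28, with 34 of 38 members below 0, beside -0.0080 over all genes, of which 51.0% were below 0. Slirp had -1.07 (SE 0.15), Timm8b -1.05 (SE 0.15), Chchd1 -1.06 (SE 0.22) and Tomm7 -0.93 (SE 0.19), each lower on the surgical side in 3 of 3 rats and each at an adjusted p of 0.999. At an unadjusted p under 0.05, 9 members were counted, 23.7%, against 3.21% of all genes, all lower. The other 5 were Chchd2l1 (-0.71), Tomm5, a small TOM subunit (-0.72), Timm10 (-0.66), Timm10b, a small Tim of the carrier translocase (-0.55), and Coa6, which helps copper delivery to cytochrome oxidase (-0.56). The count of 9 was 5 without rat A (5.82% of genes), 5 with a length trend removed (1.77%), 5 with limma on log2 TPM with 1 added (2.13%) and 15 with neuronal marker level as a covariate (13.2%). In 15 members, 39.5%, every surgical library lay below every control library, against 4.67% of all genes, and in 0 members every surgical library lay above, against 2.61%. The shares of all genes at an unadjusted p and without overlap were not matched to the members for length.

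The call at 6 weeks depended on the method. DESeq2 called 5 of 37 members, all lower (Slirp, Timm8b, Chchd1, Chchd2l1 and Tomm7), and 0.306% of genes. Without the rat as a replicate block, edgeR called 2 genes in all, 0.0117%, and both were members: Slirp at an adjusted p of 0.0255 and Timm8b at 0.0305. With a trend with transcript length removed, Slirp had -0.69, Timm8b -0.67 and Chchd1 -0.69, and without rats B, C and H they had -0.97, -0.95 and -0.76. Leaving out 1 rat at a time gave Slirp -1.14 to -0.96, Timm8b -1.15 to -0.94 and Chchd1 -1.26 to -0.75, the smallest size being that without rat B.

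Among the families of more than 1 gene, the small Tim chaperones had the lowest median at 6 weeks, -0.60. Of these 6 of 6 were below 0, with values from -1.05 for Timm8b to -0.29 for Timm8a1. All of them lay in the lowest quartile of length, where all genes had a median of -0.21. Family was not separated from length here. The Chchd genes had a median of -0.27 (9 of 10 below 0), the Coa factors -0.28 (5 of 5) and the inner membrane Tim genes -0.23 (8 of 8, from -0.29 to -0.060). The Tomm genes were mixed, with a median of -0.13 and 5 of 8 below 0. The small subunits Tomm7 and Tomm5 had -0.93 and -0.72, whereas the channel Tomm40 had 0.013 (SE 0.20), its paralog Tomm40l 0.21 (SE 0.33) and Tomm34, a cytosolic co-chaperone, 0.025 (SE 0.41). These genes differed in relative length as well, at 0.0587 for Tomm7 and 0.246 for Tomm5, against 0.567 for Tomm40, 0.518 for Tomm40l and 0.947 for Tomm34. Chchd2l2 was the highest member at 0.70 (SE 0.31), on 1.56 ± 0.729 CPM in surgical and 0.954 ± 0.393 CPM in control libraries (SD, n = 3 each). Signs near 0 depended on the scale: on log2(TPM + 1) the median of all genes at 6 weeks moved by 0.17 and 9 members turned positive (Chchd4, Chchd7, Coa7, Coa8, Timm23, Timm44, Timm50, Tomm22 and Tomm70), whereas relative to that median 1 member, Chchd4, changed side. With DESeq2's size factors Coa7 alone changed sign.

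**Figure D2:**
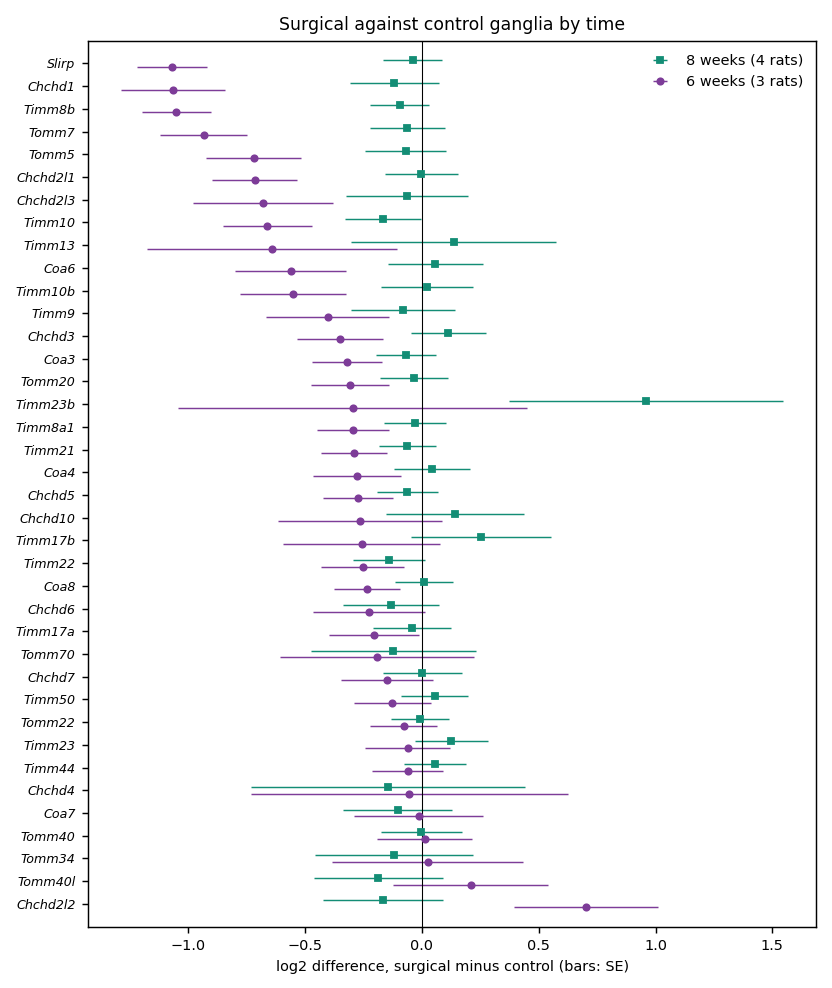
Log2 difference, surgical minus control, with its SE, for the 38 tested members at 8 weeks (green squares, 4 rats) and 6 weeks (purple circles, 3 rats), sorted by the 6-week value. At 6 weeks the members at the top, Slirp, Chchd1 and Timm8b, lie between -1.07 and -1.05, and at 8 weeks they lie between -0.12 and -0.039.

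The difference of the surgical effect, 8 minus 6 weeks, was tested directly. edgeR called 0 members and 0% of genes, limma 0 members and 0%, and DESeq2 called 2 members, Slirp and Timm8b, both higher, and 0.0294% of genes. The log2 value was 1.03 for Slirp (SE 0.19), 0.96 for Timm8b (SE 0.19) and 0.87 for Tomm7 (SE 0.25), with an adjusted p of 1.0 in edgeR. At an unadjusted p under 0.05, 6 members were counted, 15.8%, against 1.48% of all genes, and all 6 were higher: these 3 with Chchd1 (0.95), Chchd2l1 (0.71) and Tomm5 (0.65). That count was 0 with a length trend removed (0.992% of genes) and 1 with limma on log2 TPM with 1 added (1.76%). The members' median was 0.26, with 32 of 38 above 0, beside 0.046 over all genes. In the lowest quartile of length 3 of 26 members and 24.3% of all genes were below 0. On log2(TPM + 1) the median of all genes moved to the lower side, by -0.28, and 17 members changed sign, 5 of them relative to that median. On the lower side, Chchd2l2 had -0.87 (SE 0.40), Tomm40l -0.39 (SE 0.43) and Tomm34 -0.14 (SE 0.53).

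On the control side, Slirp, Timm8b and Chchd1 were lower in CPM at 8 weeks than at 6 weeks, and with edgeR on all libraries, with the rat as a block where sides were compared, they were the only members that passed the test in any of the 6 comparisons. Slirp averaged 20.6 ± 1.54 CPM in the 4 controls at 8 weeks and 43.9 ± 2.98 CPM in the 3 controls at 6 weeks, a log2 difference of -1.09 (SE 0.12). Timm8b averaged 78.2 ± 5.64 CPM at 8 weeks and 172.6 ± 18.2 CPM at 6 weeks (-1.14, SE 0.14), and Chchd1 30.1 ± 2.86 CPM at 8 weeks and 82.9 ± 17.6 CPM at 6 weeks (-1.46, SE 0.17). Each had an adjusted p of 0.0351 in edgeR. In TPM the differences were smaller, and none passed: by limma on log2(TPM + 1) Slirp had -0.37 (adjusted p = 0.214), Timm8b -0.53 (adjusted p = 0.0742) and Chchd1 -0.83 (adjusted p = 0.0562). Slirp had 94.8, 102.5, 102.5 and 80.5 TPM in the 8-week controls of rats D, C, G and H, against 104.3, 107.0 and 163.8 TPM in the 6-week controls of rats A, B and E, so the groups did not overlap, rats A and B lay near the 8-week libraries and rat E stood above them. The 3 members of 38 compare with 25 of 17035 genes, 0.147%, and among genes that were lower with 0.129%. The 6-week controls in this comparison are the same libraries that enter the 6-week side comparison, so the 2 results share them and do not stand as separate evidence.

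Beyond these 3, the direction on the control side was split, with 19 members above and 19 below 0 and a median of -0.071, beside -0.062 over all genes. Tomm7 had -0.90 (SE 0.15, adjusted p = 0.0698) and Chchd2l3 -1.38 (SE 0.28, adjusted p = 0.0850). On the higher side Tomm34 had 0.85 (SE 0.29), Tomm40l 0.79 (SE 0.34) and Tomm40 0.55 (SE 0.21), none of which passed the adjusted threshold. Tomm40 had 75.4, 61.6, 81.4 and 60.2 CPM in the 8-week controls of rats D, C, G and H, against 44.9, 37.1 and 61.2 CPM in the 6-week controls of rats A, B and E, so the groups overlapped. At an unadjusted p under 0.05, 13 members were counted, 34.2%, against 30.4% of all genes, so this share was near the background. In 12 members every 8-week control lay below every 6-week control, 31.6% against 12.6% of all genes, and in 3 members every one lay above, 7.89% against 11.8%. These shares of all genes were not matched for length. DESeq2 called 10 members, 9 lower and 1 higher, 26.3% against 19.7% of genes, and limma called 0 members and 0.052% of genes.

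These control-side calls rested on the libraries used and on the scale. Without rat E, edgeR called 17 members, 9 higher and 8 lower, together with 37.4% of all genes, and with rat A, B, C, D, G or H left out it called 0. Those fits called 0% of all genes, or 0.00587% without rat H, so the other genes' calls were lost with those of the members. With neuronal marker level as a covariate 0 members were called, beside 19 of all genes, at log2 differences of -1.05 for Slirp, -1.06 for Timm8b and -1.13 for Chchd1 and adjusted p from 0.0543 to 0.0573. Without rats B, C and H the differences were -1.08, -1.08 and -1.31 at an adjusted p of 0.343. On log2(TPM + 1) the median of all genes on the control side moved by 0.47, and relative to the median Slirp had -0.78, Timm8b -0.94 and Chchd1 -1.24, against -1.03, -1.08 and -1.40 in CPM; 10 members changed sign outright and 1, Tomm22, relative to the median. The mean neuronal marker level was 8.97 to 9.74 log2 CPM in the 8-week controls and 7.23 to 9.29 in the 6-week controls, and mitochondrial mRNAs took 160200 to 213000 TPM in the 8-week controls and 260300 to 288500 TPM in the 6-week controls, ranges that did not overlap for the mitochondrial mRNAs. The part of mitochondrial mRNA or of the Schwann cell markers above in the result was not tested.

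On the surgical side, 8 against 6 weeks, 0 members passed by edgeR (0% of genes), DESeq2 (0.0777%) or limma (0.0289%). The median was 0.25, with 28 of 38 above 0, beside 0.023 over all genes. The members' median less that of all genes was 0.23, but 0.014 with neuronal marker level as a covariate and 0.069 without rat A. Slirp had -0.046 (SE 0.16) and Timm8b -0.16 (SE 0.15), while Chchd1 had -0.49 (SE 0.22) and Chchd2l3 -0.81 (SE 0.21, adjusted p = 0.674). Tomm40 was at 69.0 ± 2.94 CPM at 8 weeks and 47.9 ± 10.3 CPM at 6 weeks (0.54, SE 0.19, adjusted p = 0.674). Chchd10, a cristae-associated protein, had 125.5 to 174.8 CPM in the 8-week surgical libraries, against 35.5, 94.7 and 108.2 CPM in those of rats A, B and E (0.87, SE 0.38). The lowest value came from the library with the lowest neuronal markers. Timm50, a receptor of the presequence translocase, had 0.34 (SE 0.15). At an unadjusted p under 0.05, 2 members were counted, 5.26%, against 6.45% of all genes. On log2(TPM + 1) the median of all genes moved by 0.17 and 8 members changed sign, among them Slirp, Timm8b and Tomm7, so the directions of these 3 were not settled. In 6 members every 8-week library lay above every 6-week library, 15.8% against 5.04% of all genes, and in 1, Chchd2l3, every one lay below, against 5.17%.

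**Figure D3:**
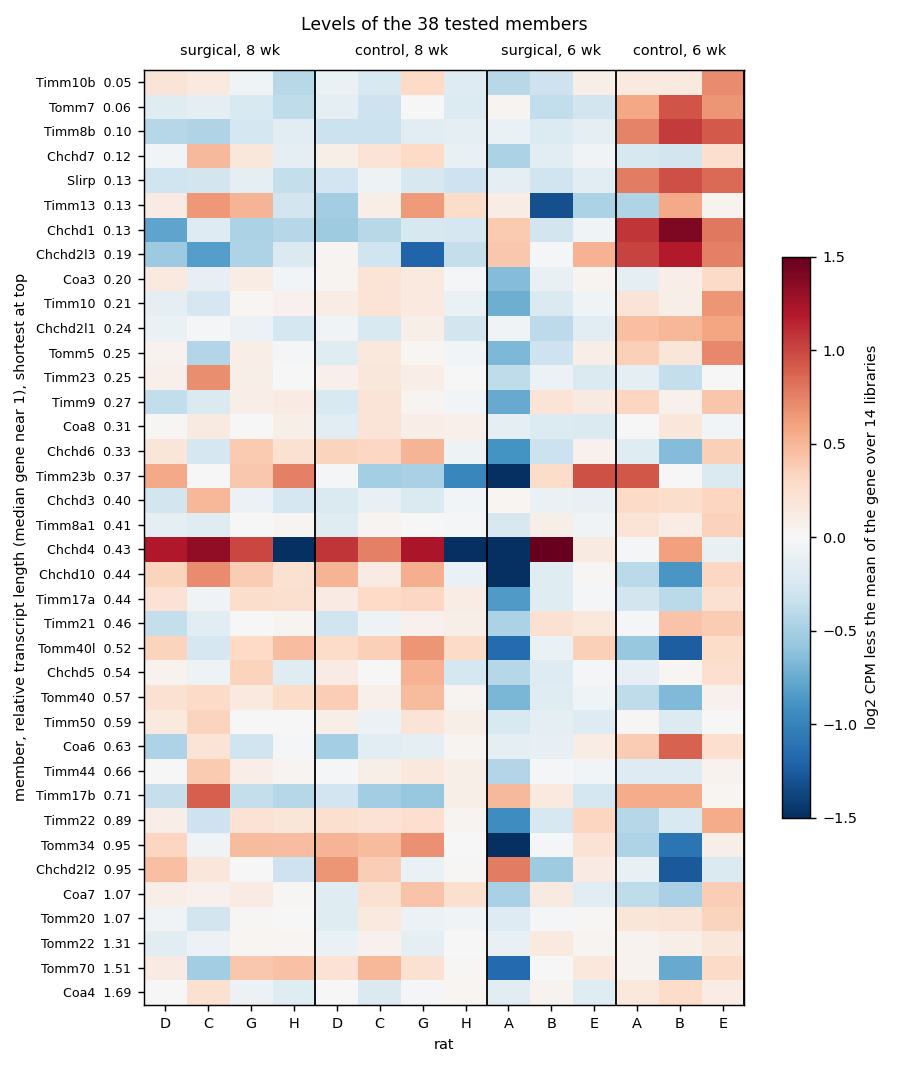
Log2 CPM of the 38 tested members (rows, shortest transcript at the top, relative length beside the symbol) in the 14 libraries (columns, by rat within group), less the mean of each gene, on a colour scale from -1.5 in blue to 1.5 in red, with values beyond it drawn in the end colours. Slirp, Timm8b, Chchd1, Tomm7 and Chchd2l3 are red in the 3 control libraries at 6 weeks, and many rows are blue in the 6-week surgical library of rat A.

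Transcript length separated the members where the 6-week controls were involved. At 6 weeks the 26 small members had a median surgical minus control difference of -0.31 and the 12 long ones -0.16, beside -0.21 over all genes of the lowest length quartile and 0.045 over the longer genes. Small and long members were thus both below genes of their own length class, but the long members were not spread in length as the longer genes were. In quartile 2 the 7 members had -0.13, beside -0.064 over all genes. The 3 members in quartile 3 had -0.077, beside 0.051, and the 2 in quartile 4 had -0.23, beside 0.16. The 10 shortest members had a median of -0.67, with 10 of 10 below 0, beside -0.31 over the 739 genes no longer than the longest of them. Some of these genes were shorter than any member. At 8 weeks the 10 shortest had -0.063 and the 739 genes 0.10. On the control side, 8 against 6 weeks, small members had -0.26 and long members 0.15, beside -0.30 and 0.032 over all genes of those classes, and the 10 shortest had -0.65, beside -0.74 over genes as short. The members' median less that of all genes was -0.0086 on the control side, and 0.22 once a trend with length was removed. On the surgical side, 8 against 6 weeks, small members had 0.25 and long members 0.18, beside 0.019 and 0.037 over all genes.

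Within the members, the Spearman correlation between relative length and the log2 difference was 0.65 at 6 weeks over 38 members, and 0.41 over 15910 genes with a length. It was -0.042 over the members at 8 weeks and -0.024 over all genes, and 0.47 and 0.22 on the control side, 8 against 6 weeks. These correlations describe points that share libraries and depth. Within single libraries, the correlation of length with the gene's level relative to its mean over all libraries lay between -0.025 and 0.13 over all genes in the 8-week controls, and between -0.22 and -0.18 in the 6-week controls. When a smooth trend with length was removed from each library, 0 members were called on the control side, and Slirp had -0.46 (adjusted p = 0.140), Timm8b -0.46 (adjusted p = 0.146) and Chchd1 -0.82 (adjusted p = 0.108).

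**Figure D4:**
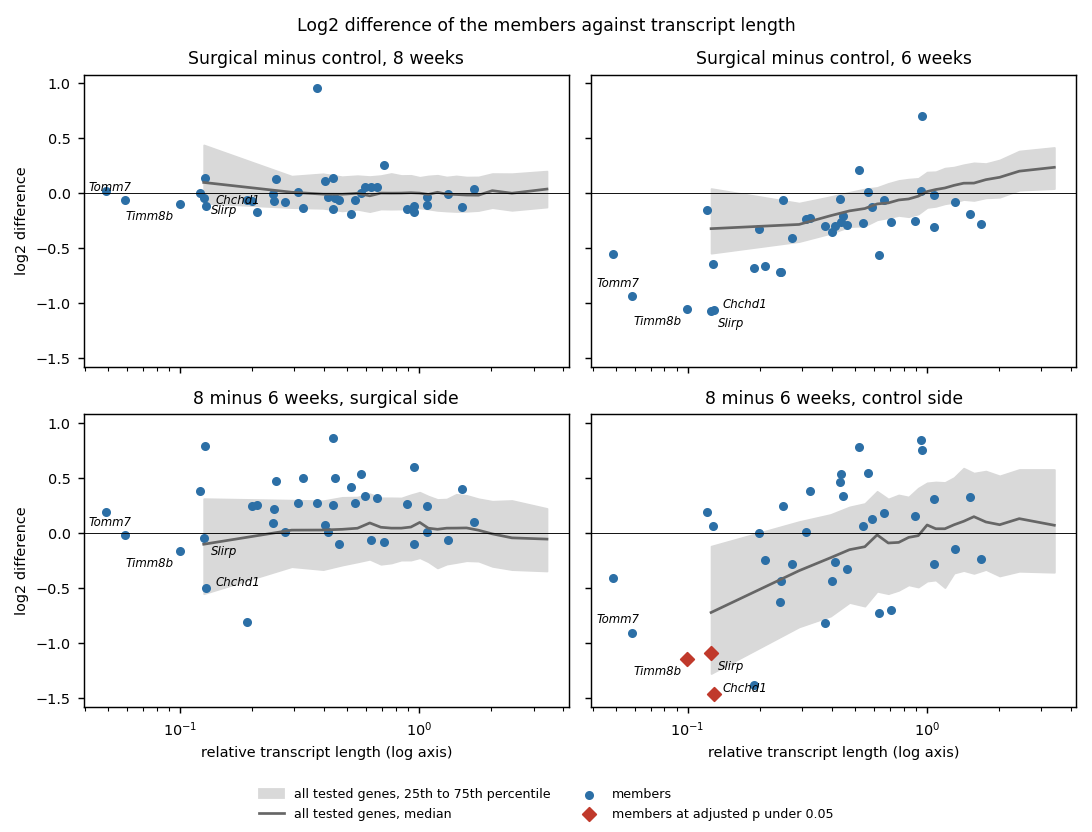
Log2 difference of the 38 members (points) against relative transcript length (log axis) in 4 comparisons, with the median (line) and the 25th to 75th percentile (band) of all tested genes in bins of length. At 6 weeks and on the control side Slirp, Timm8b and Chchd1 (red diamonds where called) lie between -1.46 and -1.05, while Timm10b, the shortest member, lies at -0.55 and -0.40.

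Genes that start beside a member were looked at after the members' values were seen. Timm8b starts 96 bases from Sdhd, which encodes a subunit of succinate dehydrogenase and is transcribed in the opposite direction. Sdhd had a log2 difference of -0.26 (SE 0.19) in surgical against control ganglia at 6 weeks, beside -1.05 for Timm8b, and -0.062 (SE 0.13) on the control side, 8 against 6 weeks, beside -1.14. The relative length was 0.468 for Sdhd and 0.0998 for Timm8b, so the pair differed in length as well. Timm10b and its neighbour Arfip2, 189 bases apart, had -0.55 and -0.086 at 6 weeks. Their relative lengths were 0.0487 and 0.817. In all, 7 members had a tested neighbour that starts within 1000 bases and is transcribed in the opposite direction. For the other pairs at 6 weeks, Timm17b had -0.26 and Pqbp1 -0.19, and Coa8 had -0.23 and Bag5 -0.082. Chchd4 had -0.054 and Tmem43 -0.057, and Timm23 had -0.0597 and Parg -0.0115. Timm21 had -0.29 and Fbxo15 0.40.

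Other genes of the same pathways, from 3 lists, gave 0 calls in every comparison by edgeR. At 6 weeks the 25 genes of import and processing outside the rule had a median surgical minus control difference of -0.21 (21 of 25 below 0), and 6 were lower at an unadjusted p under 0.05. Among them were Dnajc19 (-0.67, SE 0.20) and Pam16 (-0.38, SE 0.14), partners of the import motor, and Romo1 (-0.55, SE 0.22). The 18 tested genes of cytochrome oxidase assembly had -0.18 (14 of 18 below 0), among them Cmc4 (-0.58, SE 0.18) and Cmc2 (-0.53, SE 0.15), and the 7 cristae genes had -0.28 (5 of 7 below 0), with 4 and 2 genes lower at an unadjusted p under 0.05. The share of all genes at that p, in either direction, was 3.21%. At 8 weeks the medians were -0.0030, -0.045 and -0.082. On the control side, 8 against 6 weeks, the medians were -0.019, 0.060 and 0.10, with 6 of 25, 4 of 18 and 4 of 7 genes at an unadjusted p under 0.05 in either direction, against 30.4% of all genes. Lrpprc, the partner of SLIRP, had 0.95 there (SE 0.25, adjusted p = 0.101), the highest of the 18 assembly genes and opposite in sign to Slirp. In that comparison genes of the lowest length quartile, where Slirp lies, had a median of -0.30 and longer genes 0.032. The part of length in the contrast of Lrpprc and Slirp was not tested. Dnajc19 had -0.82 on the control side (SE 0.12, adjusted p = 0.0693). On the surgical side, 8 against 6 weeks, the medians were 0.20, 0.22 and 0.18, with 18 of 18 assembly genes above 0.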

How the data were processed

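Dorsal root ganglion RNA of 7 rats was measured in 14 libraries, and sides and times were taken from the titles, whose letters C and D were exchanged with those of the column names without breaking any pair; rat C's surgical title named replicate 1, which was read as replicate 2. For every gene the authors deposited an estimated count and a TPM value. FastQC, Trim Galore, Salmon and DESeq2 are named per the submitters' processing notes. Versions and the genome build are not given in the sources used here, and the labels name both polyA RNA and ribosomal depletion. The deposited estimated counts were whole numbers.

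The main test was the edgeR quasi-likelihood test, version 4.0.16 under R 4.3.3 (filterByExpr with a minimum count of 10, TMM, robust quasi-likelihood, two-sided, Benjamini-Hochberg adjustment over 17035 genes, threshold 0.05). The sides were compared with the rat as a block, because the titles place both sides in 1 animal. Deviations of the 2 libraries of a rat from their group means correlated at 0.75 in rat E and 0.26 in rat A. They correlated at 0.13 in rat G, -0.085 in rat D, -0.12 in rat B, -0.31 in rat H and -0.41 in rat C. In rats G, D, B, H and C the control correlated more highly with another rat's surgical library of that time. The highest such values were 0.32, 0.27, 0.62, 0.51 and 0.40, in that order. For rats E and A they were 0.076 and 0.049. Levels in single libraries are TMM-scaled CPM. The method was tested on simulated data with changes larger than those of the members and no differences between rats. The difference of the surgical effect was not simulated. That test therefore does not show how often changes of the members' size would be found. Alternatives were DESeq2 1.42.0, its size factors, no filter, at least 1 CPM in 3 libraries, limma 3.58.1 on TPM (genes of at least 0.5 TPM, log2 after adding 1 or 0.1), removal of a lowess trend with length (span 0.3), the level of 16 neuronal markers as a covariate, no rat block, the libraries of 1 time only, and omission of single rats or of rats B, C and H. Relative length used genes with at least 20 counts in 3 libraries. Members named singly were Slirp, Timm8b, members past the threshold, otherwise the 3 with the smallest p in each direction, and the highest and lowest by TPM, and others named beside them were chosen after their values were seen. Members, lists and tests were chosen with earlier results of these data known. Each library came from a labelled animal. With the rat as a block, p-values measure how far the difference between the sides varied from rat to rat. In the comparisons of the times on 1 side, they measure the spread between animals.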

Additional observations from a re-analysis of the deposited data

Results flagged for a closer look

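In groups of 4 libraries, a library was picked out when its gap to the nearest of the others exceeded a share of 0.829 of the group's range, which chance gives in about 1 of 20 groups. Of 36 groups examined, 4 were picked out. At 8 weeks the surgical library of rat C was the highest for Timm17b, at 31.9 CPM against 12.7 to 13.4 CPM in the other 3 surgical libraries, and for Timm23, at 132.2 CPM against 81.4 to 86.9 CPM. That library also held 50930 summed CPM of skeletal muscle markers, against 22.4 to 125 CPM in the other surgical libraries at 8 weeks, and the part of muscle RNA in these levels was not tested. The control library of rat H was the lowest of the 8-week controls for Timm22, at 37.4 CPM against 42.5 to 43.4 CPM. The control library of rat D had 0 CPM of Timm8a2, against 0.0353 to 0.0437 CPM in the other 8-week controls, levels of about 1 count.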

How the results depend on the processing

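Of 60 counts of called members under alternatives other than the omission of single rats, 51 stayed within 1.5 times the count reported. In 5 of the 6 comparisons the count reported was 0, so for these a stable count is 0 that stayed 0. On the control side the count of 3 stayed only with DESeq2's size factors, no filter or at least 1 CPM in 3 libraries. At 6 weeks the count of called members was 0, but 5 with DESeq2 and 2 without the rat as a replicate block. For the difference of the surgical effect it was 0, but 2 with DESeq2. For 8 against 6 weeks on the control side it was 3, but 10 with DESeq2 and 0 with limma on log2 TPM with 1 or 0.1 added, with the length trend removed, with neuronal marker level as a covariate and without rats B, C and H. With single rats left out it ran from 0 to 17 on the control side, 17 without rat E and 0 without rat A, B, C, D, G or H, and it was 0 throughout in the other 5 comparisons. The block changed no other count. The causes were not tested. No result named in the text changed sign while past the threshold. The median of the small less that of the long members was -0.15 at 6 weeks and 0.058 with the length trend removed, and on the control side -0.40 and -0.0052 (-0.17 with neuronal marker level as a covariate and -0.23 with limma on log2(TPM + 1)). Members with few reads were the least precise: Chchd4 had 0 to 119 counts in a library, Timm23b 14 to 112, Timm13 16 to 90 and Chchd2l2 9 to 63. A member that missed the threshold is not shown to be the same in both groups.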

Other observations

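Chchd4, which encodes the oxidoreductase that drives import into the intermembrane space, was nearly absent from both libraries of 1 rat. It had 0 counts in the surgical and 4 counts in the control library of rat H, while the other 12 libraries had 10 to 119 counts. A count of 0 in 1 library allows up to 3 counts, counting error alone considered. The other 8-week libraries had 92 to 99 counts on the surgical side and 69 to 119 on the control side.

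The 40 members together took 2741 to 3415 TPM in the 8-week surgical libraries, against 3111 to 3909 TPM in the 8-week controls, and 1864 to 3016 TPM in the 6-week surgical libraries, against 2868 to 4476 TPM in the 6-week controls.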
